A study of Mus musculus with 59 samples.

Results

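The Krüppel-like factors examined here are 10 named genes, Klf2, Klf3, Klf4, Klf5, Klf6, Klf9, Klf10, Klf11, Klf13 and Klf15, out of 55341 genes listed in each of 3 tables of read counts. Members were taken by gene name, and all 10 have a row in each table. RNA was sequenced from brown adipose tissue (BAT) of 59 male mice of the C57BL/6J background, 8 to 12 weeks old, in 3 experiments that were tabulated separately. The first experiment addressed the response to thyroid hormone, the second the response to cold and the third the response to a short high-fat diet.

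In the thyroid hormone (TH) experiment, wild-type (WT) mice received propylthiouracil (PTU) in food, a drug that blocks hormone synthesis and makes mice hypothyroid. The groups were PTU without hormone (n = 4) and PTU followed by TH for 3, 6, 12 or 24 h (n = 4 each), and the hormone was given as a single injection of T3 together with T4. BATKO mice were examined under PTU (n = 5) and 24 h after TH (n = 5). In the temperature experiment, control (CTRL) mice were kept at 4 °C (n = 3) or 30 °C (n = 4) and BATKO mice at 4 °C (n = 4) or 30 °C (n = 5), and the label of the table carries 24 h. In the diet experiment, CTRL mice received Chow (n = 4) or a high-fat diet (HFD, n = 4) and BATKO mice Chow (n = 2) or HFD (n = 3), with 3.5 days in the label of the table. BATKO is the genotype named in the labels. Neither the labels nor the methods used here name the altered gene or the promoter used, so a targeted gene could not be checked. Each library is 1 mouse.

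Krüppel-like factors are transcription factors with a carboxy-terminal DNA-binding domain of C2H2 zinc fingers that recognises GC-rich and CACCC sequences. The amino-terminal part differs between members and sets the partners: Klf2, Klf4, Klf5 and Klf6 act mostly as activators, Klf3 recruits the corepressor CtBP, and Klf9, Klf10, Klf11 and Klf13 recruit the Sin3 corepressor complex. In fat tissue several members are known as regulators of adipocyte differentiation, Klf15 is known as a regulator of amino acid and glucose metabolism, and Klf9 is a well-known target of the thyroid hormone receptor and of the glucocorticoid receptor.

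The sequences before the gene starts are shown for the 4 members whose level changed after TH. RefSeq promoters on GRCm38.p6 matched 8 of the 10 members, and Klf5 and Klf10 had no entry. The 250 bases before each annotated start were searched on both strands. Capitals mark each E-box (CACGTG, the site of clock factors) and each core of the cAMP response element (TGACG of the CRE TGACGTCA, written CGTCA where it lies on the other strand), and every window is written 5′ to 3′ on the strand of the gene. The windows are chr19:23140976-23141225 (plus strand) for Klf9, chr7:63938916-63939165 (minus strand) for Klf13, chr6:90462326-90462575 (plus strand) for Klf15 and chr12:24651121-24651273 (plus strand) for Klf11, where the last stops at the upstream start in the GENCODE annotation.
Klf9: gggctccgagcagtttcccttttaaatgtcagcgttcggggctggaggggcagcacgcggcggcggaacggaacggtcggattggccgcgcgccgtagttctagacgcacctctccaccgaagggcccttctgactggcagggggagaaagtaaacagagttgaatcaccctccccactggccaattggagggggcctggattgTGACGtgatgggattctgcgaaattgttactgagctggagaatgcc
Klf13: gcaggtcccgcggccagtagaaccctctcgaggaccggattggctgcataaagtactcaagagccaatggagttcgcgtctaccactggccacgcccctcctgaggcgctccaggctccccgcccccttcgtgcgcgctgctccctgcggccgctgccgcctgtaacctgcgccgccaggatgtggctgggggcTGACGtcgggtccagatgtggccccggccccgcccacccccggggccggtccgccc
Klf15: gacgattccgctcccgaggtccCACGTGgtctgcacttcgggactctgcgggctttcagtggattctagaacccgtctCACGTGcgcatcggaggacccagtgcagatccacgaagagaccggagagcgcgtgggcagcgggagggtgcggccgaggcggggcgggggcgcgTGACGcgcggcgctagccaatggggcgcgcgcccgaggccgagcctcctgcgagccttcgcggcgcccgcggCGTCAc
Klf11: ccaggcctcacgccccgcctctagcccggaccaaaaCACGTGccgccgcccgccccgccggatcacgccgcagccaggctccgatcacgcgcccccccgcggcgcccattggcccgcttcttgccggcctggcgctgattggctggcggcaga

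In the full 250-base windows, the E-box occurred in Klf4, Klf6, Klf11 and Klf15, or 4 of 8 members, against 6.02% of all 32851 promoters in the table. Klf15 carried 2 E-boxes, which start 228 and 172 bases before the annotated start. The CRE core TGACG, which also lies within the complete CRE, occurred in Klf2, Klf4, Klf9, Klf13 and Klf15, or 5 of 8 members, against 17.8% of all promoters. It starts 46 bases before the start of Klf9 and 56 bases before that of Klf13, and Klf15 has 2 matches, at 78 and 6 bases. The GC box (GGGCGG) was present in 7 of 8 members and in 32.7% of all promoters, and Klf9 was the member without it. CACCC was present in 5 of 8 and in 52% of all. No member held AGGTCA, the single site of the thyroid hormone receptor (14% of all promoters). None held the DR4 element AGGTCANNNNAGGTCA (0.0152%), the complete CRE (1.55%) or a glucocorticoid response element (0.00913%). The windows were not matched for base composition, and a match is a description of letters and not of a bound site.

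Total counts ranged from 7612059 to 18073627 per mouse. In the TH experiment the BATKO libraries held 13593987 to 18073627 counts with 21517 to 22711 detected genes, and the WT libraries 7805938 to 14615534 counts with 18386 to 20257 detected genes. Total counts overlapped between genotypes and the numbers of detected genes did not, and the part of this gap in the genotype comparisons was not tested. Levels are CPM, counts scaled to library size with TMM factors within each table, so levels set across tables are side by side only. The TH treatment was checked with Hr, a hormone target in most tissues, whose mean rose from 1.03 ± 0.293 CPM (SD, n = 4) in WT under PTU to 24.4 CPM at 24 h. In BATKO mice the same check did not pass in edgeR, with means of 1.76 and 2.48 CPM and an adjusted p of 0.96, and the difference of the Hr response between genotypes was -4.05 ± 0.58 (SE, adjusted p = 4.43e-05) on the log2 scale. The 10 brown adipocyte markers summed to at least 5871 CPM in every mouse. The 10 skeletal muscle markers summed to between 9.42 and 8276 CPM per mouse, with 11 mice above 1000 CPM, and every count of members below was also computed without those 11 mice. In whole tissue, fewer cells of a type and less RNA per cell cannot be told apart.

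Per exon length, Klf9 had the highest mean in 6 of the 7 groups of the TH experiment, and Klf2 in the remaining one and in every group of the temperature and diet experiments. The ranges of Klf2 and Klf9 overlapped in both PTU groups, in both groups at 4 °C and in CTRL mice at 30 °C. Group means of Klf2 were 10.9 to 25.2 CPM per kb of exon in the TH, 43.1 to 128 in the temperature and 85.8 to 193 in the diet experiment. Those of Klf9 were 16.2 to 59.4, 26.2 to 30.8 and 35.8 to 44.7 CPM per kb. Klf15 stood above Klf2 in mean at 6 and 12 h after TH, with overlapping ranges. In the TH experiment the group means were 4.77 to 7.65 CPM per kb for Klf6, 8.39 to 26.1 for Klf15, 2.03 to 7.15 for Klf4, 5.78 to 10.5 for Klf10, 2.24 to 3.83 for Klf3, 0.637 to 5.86 for Klf13 and 1.12 to 3.37 for Klf11. Klf5 had at most 13 counts in any mouse and stayed under the filter on low counts in every fit, while the other 9 members were tested in every comparison.

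**Figure D1:**
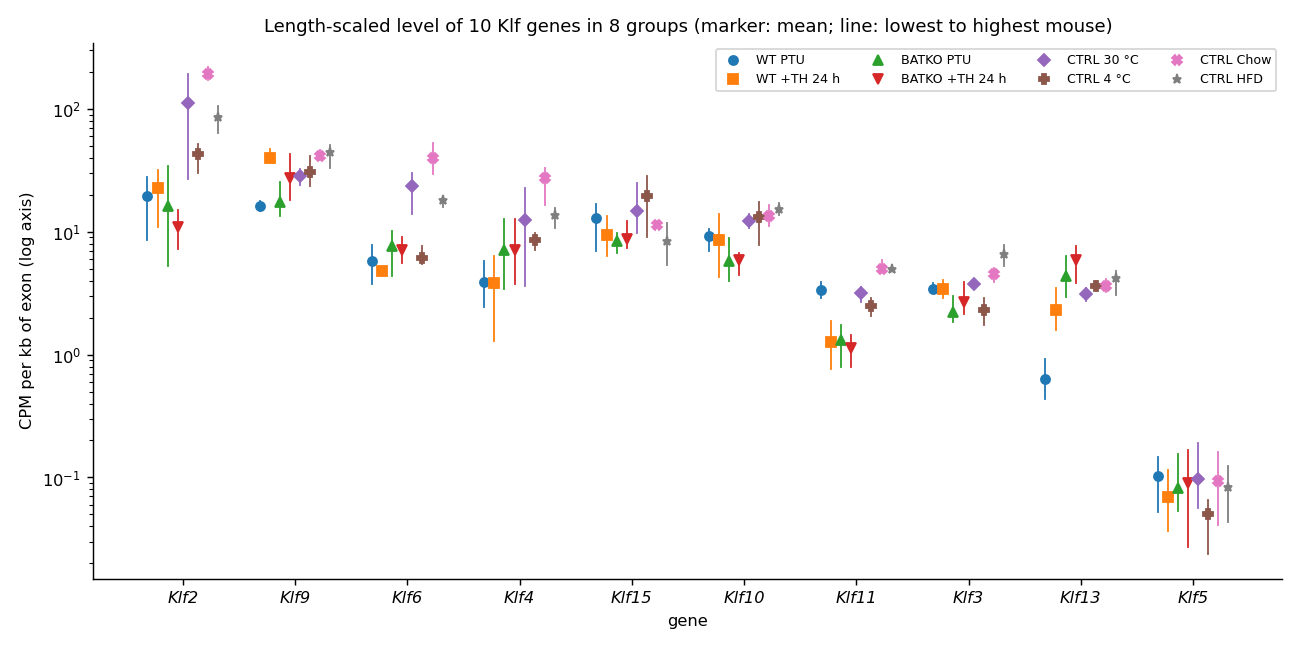
Length-scaled level of the 10 members in 8 of the 15 groups, in CPM per kb of exon on a log axis. Markers are group means and lines run from the lowest to the highest mouse. The groups come from 3 separately scaled tables. In WT mice under PTU Klf2, Klf9 and Klf15 overlap, and in CTRL mice on Chow Klf2 lies above the other members. Klf5 has group means of 0.103 or below, and its highest mouse, in CTRL at 30 °C, lies at 0.192.

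The order of the members is given for 1 group of the TH and 1 of the diet experiment. In WT mice under PTU the length-scaled levels were 19.4 ± 8.62 for Klf2, 16.2 ± 1.52 for Klf9, 13.0 ± 4.24 for Klf15, 9.26 ± 1.60 for Klf10, 5.74 ± 1.64 for Klf6, 3.94 ± 1.67 for Klf4, 3.46 ± 0.276 for Klf3, 3.37 ± 0.480 for Klf11 and 0.637 ± 0.209 CPM per kb for Klf13 (SD, n = 4). Each neighbour in this order overlapped the next from Klf2 down to Klf11, whereas every mouse had less Klf13 than Klf11 and less Klf5 than Klf13. In CTRL mice on Chow, Klf2 stood at 193 ± 20.1 CPM per kb (SD, n = 4), above every other member in each mouse. There Klf9 followed at 41.8 ± 3.49, Klf6 at 39.9 ± 9.61 and Klf4 at 27.3 ± 7.39 CPM per kb, and the ranges of these 3 overlapped in that order. The variation between mice also differed by member. The median coefficient of variation within groups was 41.0% for Klf2 and 37.8% for Klf4, against 10.4% for Klf9 and 12.1% for Klf3.

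TH treatment of hypothyroid WT mice upregulated Klf9 and Klf13 and downregulated Klf11 at every time point, and upregulated Klf15 at 6 and 12 h. Of the 9 members tested, 3 passed the test at 3 h, against 9.19% of all 13003 genes tested. The count was 4 at both 6 and 12 h, against 23.1% and 25.8% of all genes, and 3 at 24 h, against 32.7%. Tests are edgeR quasi-likelihood tests with Benjamini-Hochberg adjustment over all genes, and a gene passed with an adjusted p under 0.05. Some marker sums moved beside these results without overlap with PTU. At 3 h endothelial markers summed to 451 to 520 CPM against 414 to 432 CPM under PTU, and smooth muscle and pericyte markers to 286 to 319 against 244 to 274 CPM. At 6 h brown adipocyte markers summed to 18440 to 21297 CPM against 14821 to 17031 CPM, and white-type adipocyte markers to 13.8 to 17.6 against 5.67 to 8.35 CPM. At 12 and 24 h all 8 marker sums overlapped PTU, and the part of these markers in the member results was not tested.

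Klf9 (chr19:23141226-23168134, plus strand), a repressor of the Sin3 group, rose at every time after TH. Under PTU the 4 WT mice had 70.5, 72.9, 81.6 and 86.1 CPM. The levels were 239, 256, 267 and 298 CPM at 3 h, 253, 262, 268 and 296 CPM after 6 h, 272, 274, 287 and 311 CPM after 12 h and 175, 183, 188 and 226 CPM after 24 h. Every treated mouse lay above every PTU mouse. The log2 fold change was 1.74 ± 0.10 (SE, adjusted p = 8.79e-10) at 3 h, and this gene had the lowest p of all 13003 genes at that time. The later values were 1.78 ± 0.10 (SE, adjusted p = 1.02e-10) after 6 h, 1.89 ± 0.10 (SE, adjusted p = 4.07e-11) after 12 h and 1.31 ± 0.10 (SE, adjusted p = 4.08e-09) after 24 h in edgeR. The response then receded: at 24 h all 4 mice lay below all 4 mice at 3 h, a difference of -0.44 ± 0.098 (SE, adjusted p = 0.00301) on the log2 scale. This decline passed the edgeR test among the 20 WT mice but not when all 30 mice of the experiment shared the estimate of the spread (adjusted p = 0.117). In that comparison 2 of 9 members passed, both lower, against 21.3% of all genes.

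Klf13 (chr7:63886351-63938915, minus strand), another member of the Sin3 group, started from a low level and reached the largest fold change of any member after TH, at 12 h. Its level under PTU was 3.29, 3.99, 5.01 and 6.91 CPM in the 4 WT mice. It rose to 11.6, 13.5, 15.5 and 17.4 CPM at 3 h, 10.9, 15.4, 15.9 and 18.3 CPM after 6 h, 18.5, 19.1, 22.2 and 35.6 CPM after 12 h and 12.0, 14.0, 17.0 and 26.3 CPM after 24 h. The groups did not overlap with PTU at any time. The log2 fold changes were 1.55 ± 0.27 (SE, adjusted p = 0.000751), 1.62 ± 0.27 (SE, adjusted p = 0.000166), 2.30 ± 0.27 (SE, adjusted p = 1.67e-06) and 1.84 ± 0.27 (SE, adjusted p = 1.97e-05) at 3, 6, 12 and 24 h in edgeR. Between 3 and 24 h Klf13 did not pass the test, with a log2 difference of 0.28 ± 0.24 (SE) and a 95% interval of -0.22 to 0.79. For orientation, the 29 mice of the temperature and diet experiments had 20.6 to 35.8 CPM of Klf13, in tables scaled separately, and the 4 WT mice under PTU 3.29 to 6.91 CPM.

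Klf13 overlaps 2 genes on the opposite strand, Gm27252 over 3166 bp and E030018B13Rik over 3683 bp, and the strand setting of the read counting is not given in the sources used here. Gm27252 rose as well, from 0.736 ± 0.0861 CPM (SD, n = 4) under PTU to 2.04, 2.81, 2.94 and 2.01 CPM at 3, 6, 12 and 24 h, and at 3 h the fitted change was 1.43 ± 0.26 (SE, adjusted p = 0.00136) in edgeR on the log2 scale. E030018B13Rik stayed under the filter. Reads of Klf13 and of these partners may not be separable, and their part in the result was not tested. Under PTU Gm27252 was lower in BATKO than in WT mice, with a log2 difference of -0.93 ± 0.40 (SE, adjusted p = 0.0383) in edgeR, where Klf13 was higher. In the genotype difference of the 24 h response Gm27252 had -1.03 ± 0.53 (SE, adjusted p = 0.215) in edgeR, with the same sign as Klf13. In cold Gm27252 was higher in CTRL and BATKO mice, by 1.34 and 1.56 on the log2 scale (edgeR adjusted p = 0.0126 and 0.00166), where Klf13 did not pass.

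Klf11 (chr12:24651274-24662789, plus strand), known like Klf10 as a gene induced by TGF-beta, moved in the opposite direction. The WT mice had 12.7, 13.0, 16.0 and 16.8 CPM under PTU. They had 4.56, 6.46, 6.57 and 8.02 CPM at 3 h, 4.82, 5.63, 6.00 and 6.53 CPM after 6 h, 4.19, 4.78, 4.97 and 6.26 CPM after 12 h and 3.33, 3.83, 6.74 and 8.10 CPM after 24 h. All 16 treated mice lay below the lowest PTU mouse. Expression fell by 1.21, 1.37, 1.53 and 1.39 on the log2 scale at 3, 6, 12 and 24 h (edgeR adjusted p = 0.000887, 0.000101, 2.62e-05 and 4.23e-05). Klf10, the remaining member of the Sin3 group, had a mean of 38.7 ± 6.70 CPM (SD, n = 4) under PTU and means of 35.5 to 44.1 CPM after TH. Its log2 fold changes lay between -0.13 and 0.17, with edgeR adjusted p of at least 0.693, and the interval at 24 h ran from -0.72 to 0.46.

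Klf15 (chr6:90462576-90475238, plus strand), a regulator of amino acid catabolism and glucose transport, rose at 6 and 12 h and was lower again at 24 h. Its levels under PTU were 19.4, 38.4, 40.7 and 46.8 CPM. After TH they were 48.5, 54.2, 62.8 and 70.8 CPM at 3 h, 58.2, 62.7, 64.9 and 71.7 CPM after 6 h, 43.2, 73.4, 81.7 and 92.7 CPM after 12 h and 17.7, 23.1, 26.8 and 37.5 CPM after 24 h. The groups at 3 and 6 h lay wholly above PTU, while 1 mouse at 12 h fell within the PTU range and the 24 h group overlapped with it. The log2 fold change was 0.81 ± 0.24 (SE, adjusted p = 0.0185) at 6 h and 1.01 ± 0.24 (SE, adjusted p = 0.00354) at 12 h in edgeR, and 0.68 ± 0.24 (SE, adjusted p = 0.0812) at 3 h did not pass. Without the filter on low counts the 3 h difference passed (edgeR adjusted p = 0.0171). From 3 to 24 h Klf15 decreased by 1.14 on a log2 scale (edgeR adjusted p = 0.00198). The call at 6 h was lost without WT PTU mouse B5 or without the 6 h mouse B15, with an adjusted p of up to 0.0634. At 24 h Klf15 was -0.47 ± 0.24 from PTU, past the threshold only without WT PTU mouse B5 or the 24 h mouse B27 (lowest adjusted p = 0.0258).

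**Figure D2:**
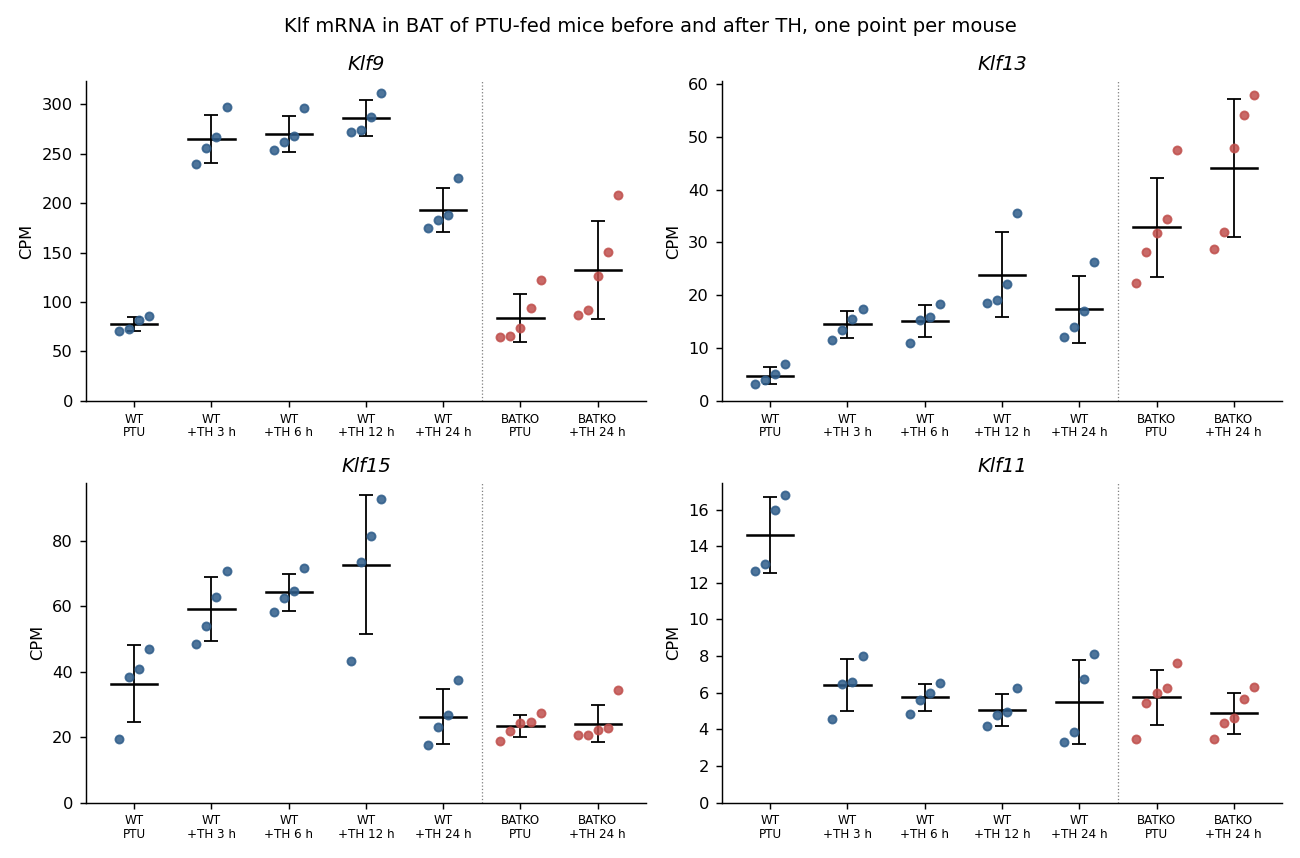
Klf9, Klf13, Klf15 and Klf11 mRNA in CPM (linear axis from 0) in the 7 groups of the TH experiment, with 1 point per mouse, the group mean as a bar and the SD as an error bar (WT blue, BATKO red). In WT mice Klf9 moves from 77.8 CPM under PTU to 265 CPM at 3 h, Klf13 rises, Klf11 falls and Klf15 is back at 26.3 CPM by 24 h. BATKO mice start from more Klf13 and less Klf11 than WT mice.

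The tested activator members Klf2, Klf4 and Klf6 and Klf3 did not pass the test at any time after TH. Klf2 had 15.9, 30.7, 45.5 and 51.4 CPM under PTU and 20.2, 36.8, 53.0 and 58.5 CPM at 24 h, an overlapping spread with a 95% interval of -0.57 to 1.03 for the log2 fold change. Klf4 was nearest to the threshold at 12 h, when its level was 4.83, 4.83, 5.75 and 9.31 CPM against 7.51, 7.85, 15.1 and 17.5 CPM under PTU (log2 fold change -0.97, SE 0.42, edgeR adjusted p = 0.0971). Without the filter on low counts, or with those groups alone in the fit, that difference passed. Klf6 changed by -0.27 ± 0.15 at 24 h and Klf3 by -0.018 ± 0.11 (SE), where the interval for Klf3 ran from -0.25 to 0.21. The Klf6 difference at 24 h passed without WT PTU mouse B2 (adjusted p = 0.0187).

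Companion genes were read as lists beside the members, and their counts stand against the shares of all genes given above for each time. Of 16 clock genes, 4 rose and 2 fell within 3 h, 8 rose and 6 fell by 6 h, 9 rose and 4 fell by 12 h, and 4 were higher after 24 h, with a median log2 fold change of 0.91 at 12 h and 0.054 at 24 h. The all-gene medians at these times were -0.02 and 0.007. Per2, a repressor of the clock, changed by 1.53 ± 0.43, 3.00 ± 0.41, 4.33 ± 0.42 and 1.52 ± 0.44 (log2, SE) over the 4 times. The sources used here give no clock time of collection, Klf9, Klf10 and Klf15 are known as rhythmic genes, and the part of the clock in these results was not tested. Of 12 glucocorticoid-responsive genes, 1 rose at 3 h, 1 fell at 6 h, 4 rose and 2 fell at 12 h, and 2 rose at 24 h, and Fkbp5 reached 1.59 ± 0.42 (SE, adjusted p = 0.00761) at 12 h in edgeR. Of 5 tested genes known as Klf15 targets, 1 rose at 3 h, 3 did by 6 h, and 2 were higher both at 12 and 24 h. Prodh, the first enzyme of proline breakdown, was higher throughout, with 2.30 ± 0.35 at 6 h and 3.05 ± 0.34 at 24 h (log2, SE). Slc2a4, the insulin-regulated glucose transporter, changed by 0.68 ± 0.13 at 24 h (edgeR adjusted p = 0.000408).

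Of 9 corepressor and coactivator genes that partner the family, 2 fell at 6 h and 2 at 24 h, which is no result about the list against the 23.1% and 32.7% of all genes that passed. Those at 24 h were the acetyltransferase Kat2b, which fell by 0.47, and the corepressor scaffold Sin3b, which fell by 0.29 on the log2 scale (edgeR adjusted p = 0.0148 and 0.0325). Among 9 TGF-beta response genes, 1 rose and 1 fell at 3 h, and 1 rose and 3 fell at each of 6, 12 and 24 h, with Tgfbi, an extracellular matrix protein, at 1.15 ± 0.24 (log2, SE) at 24 h. Among 9 adipogenic factors 1 rose and 2 fell at 3 h, 2 fell at 6 h, 1 rose and 5 fell at 12 h, and 1 rose and 4 fell at 24 h. Their sums were 945 to 1097 CPM under PTU, 864 to 1042 at 3 h, 799 to 943 at 6 h, 707 to 862 at 12 h and 761 to 933 CPM at 24 h, without overlap with PTU from 6 h on. At 24 h Cebpb changed by 1.24 ± 0.27, Cebpa by -0.95 ± 0.15 and Zfp423 by -1.06 ± 0.15 (log2, SE). Of 16 other Klf and Sp genes, 7 were abundant enough to test, and 3 passed at 6 h and 2 each at 12 and 24 h. At 24 h Klf7 rose by 0.41 and Sp3 fell by 0.39 on the log2 scale (edgeR adjusted p = 0.00593 and 0.0274).

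The profile over all 15 groups most like that of Klf9 was that of Zhx3, a zinc finger and homeobox repressor, followed by Foxo1, a forkhead factor of insulin signalling, and Foxn3, a forkhead repressor. Likeness was the root-mean-square difference of group means in log2(CPM + 0.5), centred within each experiment, and was 0.15, 0.18 and 0.22, against a median of 0.59 over 12274 genes. In WT mice Foxn3 rose from 51.4 ± 1.72 CPM (SD, n = 4) under PTU to 98.7 CPM at 3 h and Foxo1 from 62.4 to 134 CPM. Within the family the closest pair was Klf3 and Klf10, at 0.26, and Klf2 and Klf6 were at 0.42. The points of such profiles share libraries and depth, and the distances are given without a test.

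In BATKO mice 0 of 9 members passed the edgeR test 24 h after TH, against 0% of 14178 genes. With an unadjusted p under 0.05 the counts were 1 member, Klf9, and 679 genes, and DESeq2 passed 0 members and 0 genes. Klf9 had 64.2, 65.2, 73.3, 93.6 and 123 CPM under PTU and 86.6, 91.5, 126, 150.3 and 208 CPM after TH. The groups overlapped, and the log2 difference was 0.67 ± 0.17 (SE, adjusted p = 0.811) in edgeR with an interval of 0.32 to 1.03. Klf13 went from 32.9 ± 9.34 CPM (SD, n = 5) to 44.1 ± 13.1 CPM (SD, n = 5), and Klf11 from 5.75 ± 1.51 CPM (SD, n = 5) to 4.88 ± 1.12 CPM (SD, n = 5). Klf15 had means of 23.4 and 24.2 CPM.

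The difference in the 24 h response between genotypes was tested directly as an interaction. It passed for 2 of 9 members, against 12.3% of all genes. BATKO minus WT, the difference on the log2 scale was -1.39 ± 0.36 (SE, adjusted p = 0.011) for Klf13 and 1.18 ± 0.31 (SE, adjusted p = 0.013) for Klf11 in edgeR. For Klf9 the difference was -0.63 ± 0.26 (SE, adjusted p = 0.112) with an interval of -1.16 to -0.095, and it did not pass the edgeR test. Without BATKO mouse 8 of the 24 h group, which had the highest Klf9 level of that group, the Klf9 difference passed with an adjusted p of 0.0123. Klf2 differed by -0.78 ± 0.60 and Klf15 by 0.53 ± 0.31 (log2, SE), neither past the threshold.

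Both interaction results started from a difference under PTU. Klf13 had 22.4, 28.2, 31.8, 34.5 and 47.5 CPM in the 5 BATKO mice, all above the 4 WT mice, and the log2 difference was 2.78 ± 0.28 (SE, adjusted p = 4.82e-10) in edgeR. Klf11 had 3.45, 5.43, 6.00, 6.24 and 7.60 CPM, all below the WT mice, with a difference of -1.33 ± 0.21 (SE, adjusted p = 2.49e-06) in edgeR. The BATKO levels under PTU thus lay near those of TH-treated WT mice for Klf11 and above them in mean for Klf13. Klf3 was also lower in every BATKO mouse than in every WT mouse, by 0.60 on the log2 scale (edgeR adjusted p = 0.000572). Klf15 was lower by 0.62 and Klf10 by 0.66, and Klf6 was higher by 0.44 (edgeR adjusted p = 0.0127, 0.0264 and 0.0481), all with overlapping groups. Klf4 was at 0.87 ± 0.40 (SE, adjusted p = 0.0559) in edgeR, and passed in 8 of 30 fits that each left out 1 mouse. Klf9 did not differ past the threshold, at 0.13 ± 0.19 with an interval of -0.25 to 0.51. The 6 members that passed out of 9 stand against 70.3% of all genes in this comparison, a share near the background and no result about the family.

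Calls in the PTU comparison of genotypes rested in part on single mice. Klf6 lost its call in 19 of 30 fits that each left out 1 mouse, and also without the mice rich in muscle markers. In this experiment those are WT mouse B12 at 6 h and B26 at 24 h, which share the fit but are not in the groups compared. Klf10 lost it without WT mouse B2 or B3 or BATKO mouse 2 or 4, and Klf15 without WT mouse B4. The Klf10 call was also lost with a mean count above 50, and that of Klf6 with only the groups compared. Klf4 passed with either setting and without a filter. Klf3, Klf11 and Klf13 kept theirs in all 30 fits. In the same comparison 10 of 16 clock genes were higher and 5 lower in BATKO mice, 9 of 10 brown adipocyte markers were lower, and 6 of 7 other Klf and Sp genes were lower, among them Sp1 by 1.13 on the log2 scale. Marker sums in BATKO and WT mice were 10028 to 12081 and 14821 to 17031 CPM for brown adipocytes, 525 to 603 and 414 to 432 CPM for endothelium, 338 to 385 and 244 to 274 CPM for smooth muscle and pericytes, and 16.5 to 28.6 and 5.67 to 8.35 CPM for white-type adipocytes. The 12 glucocorticoid-responsive genes summed to 487 to 752 CPM in BATKO and 1368 to 1968 CPM in WT mice. None of these 5 sums overlapped between the genotypes. The part of these differences in the member results was not tested.

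Cold lowered Klf6 and Klf3 in CTRL mice. These were 2 of 9 members, both lower, against 49.3% of all genes. Klf6 (chr13:5861482-5870394, plus strand), an activator first described as an immediate early gene of injury, had 61.9, 93.0, 127 and 133 CPM at 30 °C and 23.9, 24.1 and 33.4 CPM at 4 °C. The groups did not overlap and expression fell by 1.98 on the log2 scale (edgeR adjusted p = 7.47e-05). Klf3 (chr5:64803388-64832901, plus strand), the CtBP-dependent repressor, had 39.8, 40.7, 43.9 and 44.6 CPM at 30 °C and 19.6, 25.8 and 32.6 CPM at 4 °C, a fall by 0.75 (edgeR adjusted p = 0.00031). Both results held without the mice rich in muscle markers. Klf3 overlaps Gm20033 on the opposite strand over 730 bp and C230096K16Rik on the same strand over 1722 bp, and both stayed under the filter in the temperature experiment.

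Klf2 (chr8:72319033-72321656, plus strand), a factor of endothelial quiescence that responds to flow, varied widely between mice at 30 °C. The CTRL mice had 49.6, 147, 282 and 355 CPM at 30 °C and 56.1, 87.4 and 95.1 CPM at 4 °C, so 1 mouse at 30 °C lay below the whole 4 °C group. The log2 difference of -1.42 ± 0.59 (SE, adjusted p = 0.0567) did not pass the edgeR test. It passed without CTRL mouse 19, BATKO mouse 8 at 4 °C or BATKO mouse 13 or 17 at 30 °C, with adjusted p down to 0.0132, and also without the filter on low counts (adjusted p = 0.0354) and with a mean count above 50 (adjusted p = 0.0433). Klf4 had 11.0, 31.0, 40.1 and 69.4 CPM at 30 °C and 21.7, 27.3 and 30.0 CPM at 4 °C (log2 difference -0.56 ± 0.63, SE). At 30 °C the mice fell in the same order for Klf2, Klf4 and Klf6 in both genotypes, which was so in 2 of the 12 groups of 4 or 5 mice. In both groups this order was also that of the mouse numbers in the labels, whose meaning is not given in the sources used here, and its part in the cold comparisons was not tested.

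In BATKO mice, cold was accompanied by lower Klf2 and Klf6 and higher Klf10, or 3 of 9 members against 40.2% of all genes. Klf6 had 65.0, 75.7, 90.5, 94.8 and 123 CPM at 30 °C and 22.7, 33.7, 43.5 and 55.7 CPM at 4 °C without overlap (log2 fold change -1.24, SE 0.26, edgeR adjusted p = 0.00147). Klf10 (chr15:38291463-38300706, minus strand) had 35.9, 42.0, 43.9, 44.1 and 45.1 CPM at 30 °C and 54.6, 55.0, 73.0 and 74.8 CPM at 4 °C, again without overlap (log2 fold change 0.57, SE 0.17, edgeR adjusted p = 0.0149). Klf2 went from 72.3, 178, 202, 315 and 418 CPM to 38.7, 80.1, 97.3 and 129 CPM with overlapping groups (log2 fold change -1.49, SE 0.52, edgeR adjusted p = 0.031). Klf4 had 9.02, 29.9, 42.0, 77.7 and 125 CPM at 30 °C and 18.3, 27.7, 31.6 and 34.7 CPM at 4 °C, and its difference passed only without mouse 13 at 30 °C (edgeR adjusted p = 0.0325). The calls of Klf2, Klf6 and Klf10 were all lost without the mice rich in muscle markers, which removes 2 of 5 mice at 30 °C and 2 of 4 at 4 °C. The log2 fold change was then -0.83 for Klf6, -1.05 for Klf2 and 0.31 for Klf10 (edgeR adjusted p = 0.0667, 0.232 and 0.448). The Klf10 call was lost without mouse 11 at 4 °C, and the Klf2 call without any of 5 mice: 7, 8 or 11 at 4 °C, or 16 or 17 at 30 °C. Klf5 was too low for the main test, and without the filter it gave a log2 difference of -1.77 (adjusted p = 0.0356, edgeR) from counts of at most 13.

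In the difference of the cold response between genotypes, 0 of 9 members passed in edgeR, against 1.02% of all genes. The largest differences were 0.74 ± 0.39 for Klf6, 0.53 ± 0.18 for Klf3 and 0.52 ± 0.27 for Klf10 (log2, SE), with intervals of -0.084 to 1.57, 0.15 to 0.91 and -0.039 to 1.08. Likewise 0 of 9 members passed between BATKO and CTRL mice at 4 °C (2.43% of all genes) and at 30 °C (0.00754% of all genes) in edgeR. With an unadjusted p under 0.05, Klf3 was the 1 member counted in the 4 °C comparison and in the difference of the responses, and 0 were counted at 30 °C. Of all 13267 genes, 2266, 2480 and 1115 were counted in these comparisons at that threshold. DESeq2 passed 0 members in each of the 3. With CTRL mouse 5 at 4 °C left out, Klf3 passed both the 4 °C comparison (edgeR adjusted p = 0.0403) and the difference of the cold response (edgeR adjusted p = 0.0228). Klf9, Klf11, Klf13 and Klf15 did not pass in any comparison of the temperature experiment. For Klf9 in CTRL mice the interval was -0.34 to 0.49 and for Klf13 -0.14 to 0.44, while Klf15 spread from 25.4 to 78.8 CPM at 4 °C.

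Immediate early genes were read beside the members in cold. In CTRL mice 11 of 16 fell and the other 5 did not pass, with a median log2 fold change of -2.40 against -0.057 over all genes. In BATKO mice 9 of 16 fell and the other 7 did not pass, with a median of -1.89, where 40.2% of all genes passed and the all-gene median was -0.054. Myc fell by 3.58, Jun by 2.53 and Egr3 by 5.34 on the log2 scale in CTRL mice. The summed level of all 16 was 1168 to 4410 CPM at 30 °C and 320 to 619 CPM at 4 °C in CTRL mice. Of 15 clock genes 8 were lower, 2 were higher and 5 did not pass in CTRL mice, against 49.3% of all genes that passed, and Dbp, an output gene of the clock, fell by 2.45. Endothelial marker sums were 639 to 796 CPM at 30 °C and 825 to 939 CPM at 4 °C, higher in the cold without overlap. Of these 10 markers 3 were higher and 3 lower. Of 6 other Klf and Sp genes tested, 4 were lower, with Sp4 by 1.72. Brown adipocyte marker sums were 5922 to 7409 CPM at 30 °C and 25601 to 29284 CPM at 4 °C, with 8 of 10 markers higher and 2 lower. White-type adipocyte marker sums were 25.9 to 135 CPM at 30 °C and 7.45 to 16.2 CPM at 4 °C, and those of 7 fibroblast and progenitor markers were 293 to 409 CPM and 216 to 228 CPM. Red blood cell marker sums were 177 to 333 CPM at 30 °C and 766 to 1711 CPM at 4 °C, and immune marker sums 65.1 to 99.2 CPM and 55.4 to 60.9 CPM. None of these last 5 sums overlapped between the temperatures either. In BATKO mice the sums at 30 and 4 °C were 5871 to 7178 and 17316 to 25992 CPM for brown adipocyte, 63.8 to 167 and 10.8 to 31.7 CPM for white-type adipocyte and 182 to 494 and 771 to 1111 CPM for red blood cell markers, all without overlap. There the immediate early genes summed to 1389 to 2956 CPM at 30 °C and 259 to 943 CPM at 4 °C and the clock genes to 900.5 to 1035 and 579 to 701 CPM, also without overlap, while the other marker sums overlapped. The part of immediate early, clock, endothelial or other marker genes in the member results was not tested.

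A short high-fat diet lowered the 3 activators Klf2, Klf4 and Klf6 and raised Klf3 in CTRL mice, so that 4 of 9 members passed against 3.94% of all genes. Klf2 had 316, 348, 354 and 406 CPM on Chow and 117, 142, 180.4 and 195 CPM on HFD (log2 fold change -1.17, SE 0.18, edgeR adjusted p = 0.00343). Klf6 had 130.1, 159, 181 and 230.1 CPM on Chow and 69.7, 80.3, 83.0 and 84.6 CPM on HFD (log2 fold change -1.15, SE 0.15, edgeR adjusted p = 0.0011). Every HFD mouse lay below every Chow mouse for both. Klf4 (chr4:55527143-55532466, minus strand), a factor of endothelial and epithelial differentiation, had 50.4, 88.1, 93.0 and 101 CPM on Chow and 33.0, 42.8, 45.2 and 47.3 CPM on HFD, also without overlap (log2 fold change -0.99, SE 0.19, edgeR adjusted p = 0.0124). Its call was lost without the mice rich in muscle markers, which removes 2 Chow mice (log2 fold change -0.78, adjusted p = 0.0676).

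Klf3 moved the other way, from 43.5, 47.4, 54.8 and 57.4 CPM on Chow to 59.7, 69.1, 78.7 and 87.7 CPM on HFD without overlap. The log2 fold change was 0.53 ± 0.14 (SE, adjusted p = 0.0477) in edgeR, and the call was lost in 9 of 13 fits that left out 1 mouse, with values of 0.44 to 0.63. It was also lost with only the groups compared in the fit (adjusted p = 0.0777). Klf9 had 201 ± 16.8 CPM (SD, n = 4) on Chow and 215 ± 38.8 CPM (SD, n = 4) on HFD, a log2 difference with an interval of -0.18 to 0.36. Klf11 was at 21.6 and 21.5 CPM with an interval of -0.25 to 0.22, and Klf15 was 31.9 ± 1.57 CPM (SD, n = 4) and 23.3 ± 7.70 CPM (SD, n = 4). C230096K16Rik, which shares bases with Klf3 on the same strand, differed by -0.041 ± 0.31 (log2, SE) and did not pass. Of 16 immediate early genes, 6 fell and the other 10 did not pass in the same comparison, with a median log2 fold change of -1.10. The 10 endothelial markers had a median log2 fold change of -0.077, with sums of 692 to 781 CPM on Chow and 602 to 803 CPM on HFD. Of 7 tested immune markers 1 was higher, and the sums of all 10 listed were 62.5 to 79.8 CPM on Chow and 93.6 to 196 CPM on HFD. Of 7 fibroblast and progenitor markers 2 were higher, and their sums were 295 to 367 CPM on Chow and 372 to 506 CPM on HFD. Neither sum overlapped between the diets, and the part of these genes in the member results was not tested.

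In BATKO mice, with 2 mice on Chow and 3 on HFD, 0 of 9 members passed in edgeR, against 0.0696% of all genes. With an unadjusted p under 0.05 the counts were 2 members, Klf2 and Klf6, and 1994 of 12932 genes. DESeq2 passed 1 member, Klf6, and its count over all genes is given in the closing section. Klf6 had 153 and 170.5 CPM on Chow and 90.3, 96.5 and 99.4 CPM on HFD without overlap, and its log2 difference of -0.77 ± 0.18 (SE, adjusted p = 0.105) did not pass in edgeR (adjusted p = 0.0106 in DESeq2). Klf2 had 287 and 297 CPM and 139.6, 241 and 241 CPM, and Klf4 74.4 and 97.6 CPM and 65.5, 75.5 and 82.0 CPM. Brown adipocyte marker sums were 8849 to 10293 CPM on Chow and 11037 to 12684 CPM on HFD, and endothelial sums 764 to 772 and 780 to 923 CPM. Smooth muscle and pericyte sums were 498 to 627 and 669 to 713 CPM, and red blood cell sums 453 to 484 and 583 to 1187 CPM. These sums did not overlap, the other marker sums did, and their part in the member results was not tested. The difference in diet response between genotypes was 0.67 ± 0.29 for Klf2, 0.77 ± 0.31 for Klf4 and 0.38 ± 0.24 for Klf6 (log2, SE), with intervals of 0.042 to 1.30, 0.11 to 1.43 and -0.12 to 0.88. In that difference 0 of 9 members passed in edgeR, against 0% of 12932 genes. With an unadjusted p under 0.05 the counts were 2 members, Klf2 and Klf4, and 744 genes, and DESeq2 passed 0 of either.

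Between genotypes on HFD 0 of 9 members passed in edgeR, against 0% of all genes. With an unadjusted p under 0.05 the counts were 4 members, Klf4, Klf9, Klf10 and Klf13, and 705 genes, and DESeq2 passed 0 members and 9 genes. On Chow 0 of 9 members and 0% of all genes passed, with 0 members and 1039 genes under an unadjusted p of 0.05 and 0 members and 31 genes in DESeq2. On HFD the Klf4 levels of the 3 BATKO mice, 65.5, 75.5 and 82.0 CPM, lay above those of the 4 CTRL mice, with a log2 difference of 0.82 ± 0.20 (SE, adjusted p = 0.835) in edgeR, which passed without the filter on low counts (adjusted p = 0.00288). Klf2 differed by -0.29 ± 0.22 and Klf3 by 0.34 ± 0.17 on Chow (log2, SE), with intervals of -0.76 to 0.19 and -0.022 to 0.70.

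**Figure D3:**
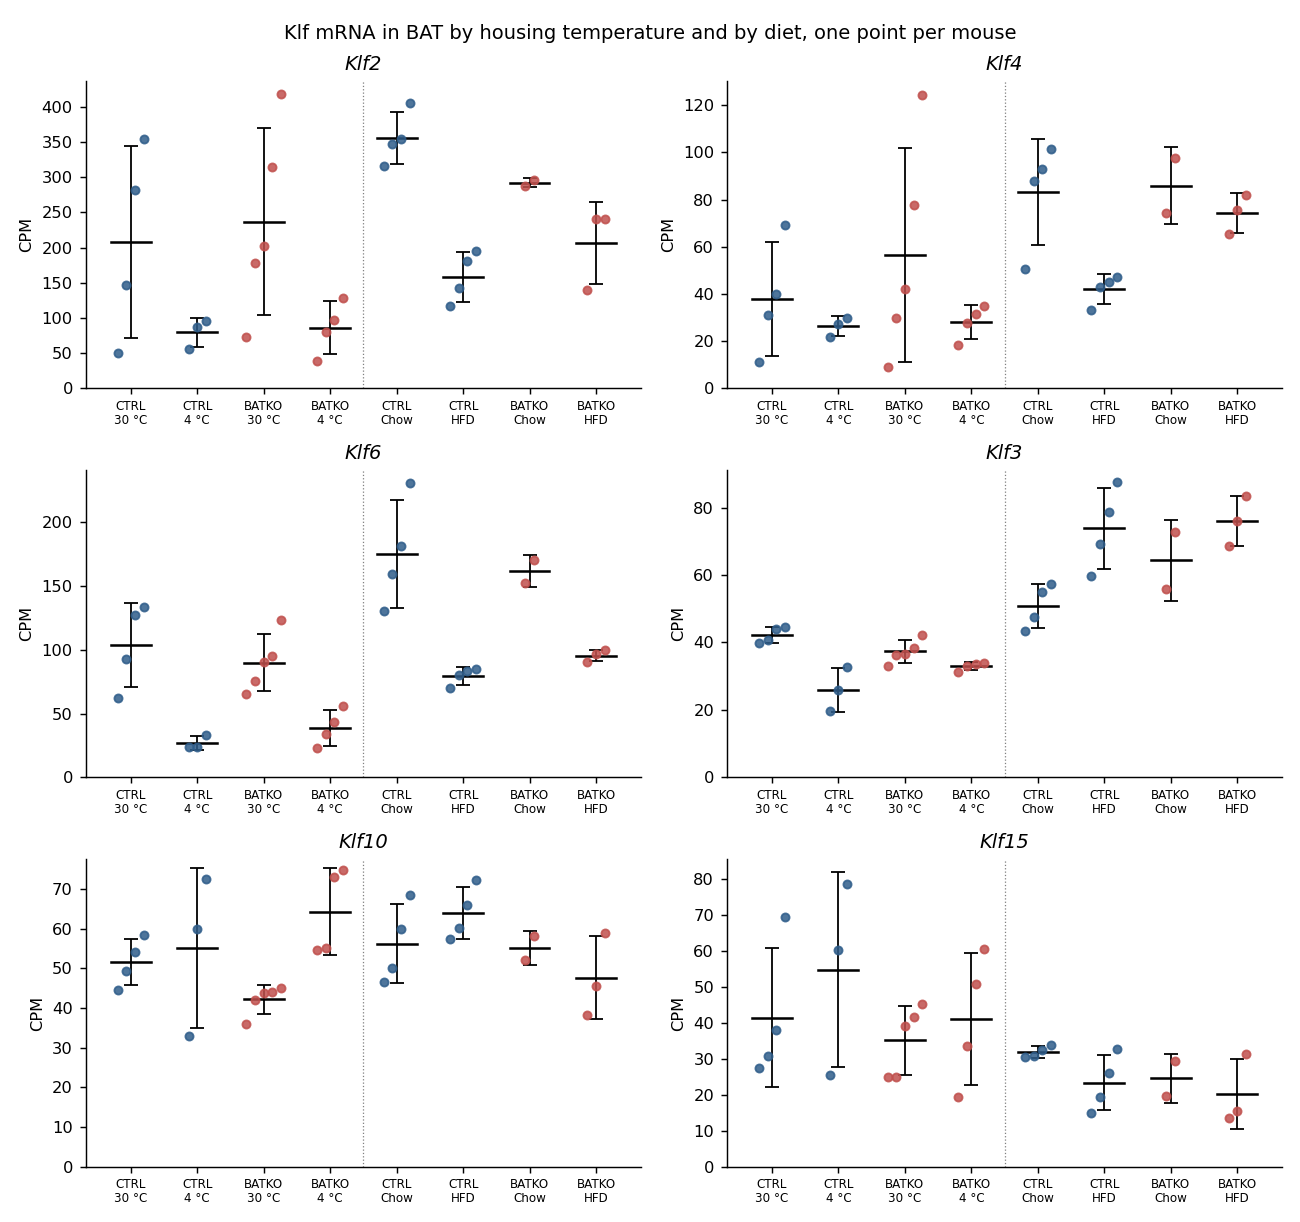
Klf2, Klf4, Klf6, Klf3, Klf10 and Klf15 mRNA in CPM (linear axis from 0) by temperature (left of the dotted line) and diet (right), with 1 point per mouse, the mean as a bar and the SD as an error bar (CTRL blue, BATKO red). Klf6 lies lower at 4 °C than at 30 °C in both genotypes, and in CTRL mice Klf2, Klf4 and Klf6 lie lower and Klf3 higher on HFD. Klf2 and Klf4 spread widely at 30 °C. The temperature and diet panels come from separately scaled tables.

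**Figure D4:**
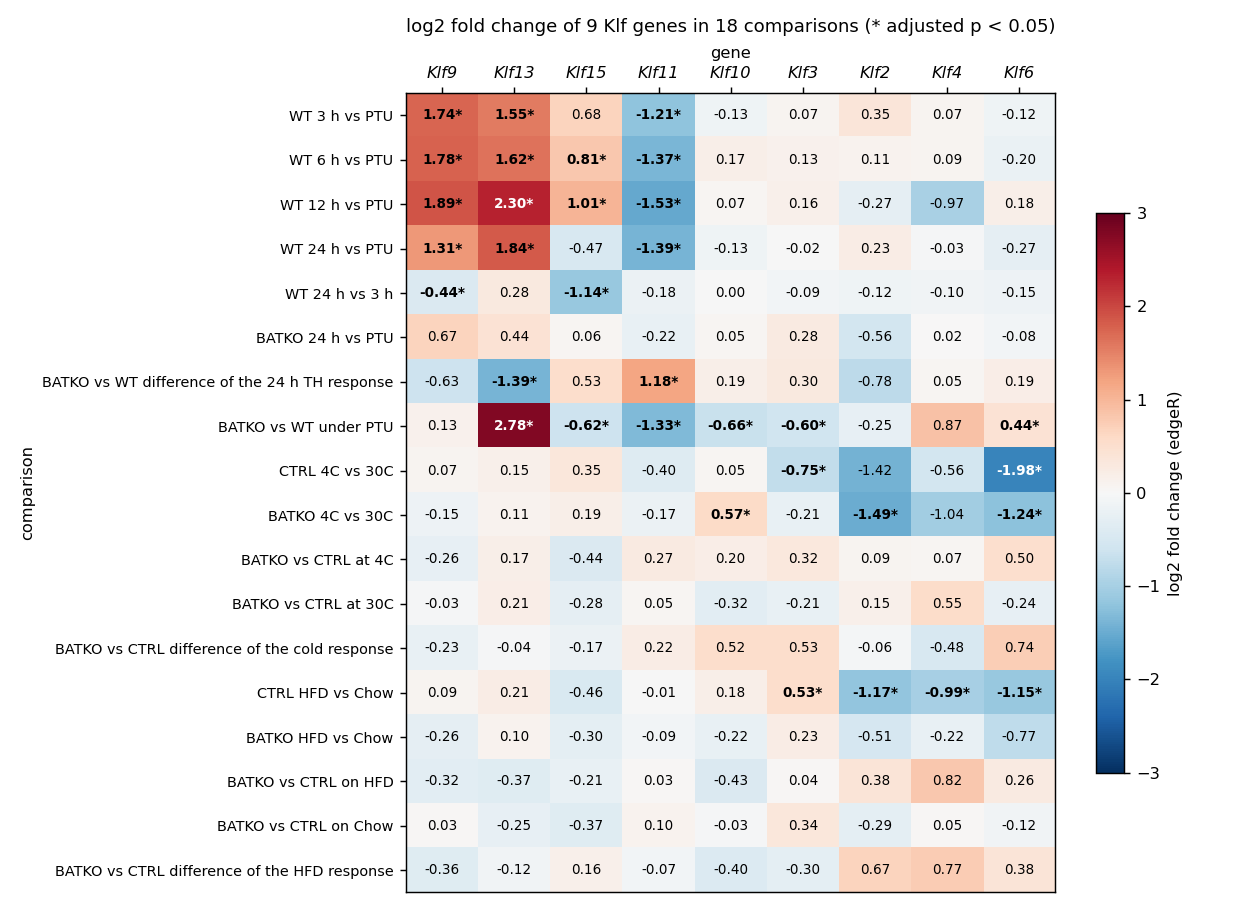
Fitted log2 fold change (edgeR) of the 9 tested members in the 18 comparisons, in red where the first-named group is higher and in blue where it is lower, with an asterisk for an adjusted p under 0.05. Klf9, Klf13 and Klf11 carry asterisks in each WT comparison with PTU and Klf15 at 6 and 12 h. Klf3, Klf6, Klf10, Klf11, Klf13 and Klf15 carry them between genotypes under PTU, and Klf2, Klf3, Klf4, Klf6 and Klf10 in temperature or diet comparisons. The WT comparisons with PTU share the same 4 PTU mice.

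Within the TH experiment Klf9 had its highest mean at 12 h, 286 CPM, and it did not pass in any temperature or diet comparison, where its log2 differences lay between -0.36 and 0.092. Within the diet experiment Klf6 and Klf2 had their highest means on Chow in CTRL mice, 175 and 356 CPM, and in WT mice after TH their log2 differences from PTU lay between -0.27 and 0.18 for Klf6 and between -0.27 and 0.35 for Klf2. In CTRL mice Klf3 fell in cold, and its rise on HFD depended on the fit as given above. The comparisons between experiments were not tested, since the tables hold different mice and were scaled separately.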

How the data were processed

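Total RNA from BAT was made into libraries with the Lexogen SENSE kit and sequenced on a NextSeq 500. The authors aligned reads to GRCm38 (mm10) with Bowtie2 (version 2.3.2.2 in the submitters' processing notes), removed alignments of quality below 10 and deposited raw read counts per gene from htseq-count in 3 tables. Whether counting used strand is not given in the sources used here.

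From these deposited counts, CPM were computed with TMM scaling in each table (edgeR 4.0.16, R 4.3.3, limma 3.58.1), and per kb of GENCODE exon union. Genes with a mean normalised count above 10 were tested with edgeR's two-sided quasi-likelihood test, with Benjamini-Hochberg adjustment over all genes, an adjusted p threshold of 0.05 and 95% intervals. The SE is the log2 fold change divided by the square root of F. WT comparisons were fitted on the 20 WT mice, comparisons with BATKO in the TH experiment on all 30, and the other experiments on 16 and 13 mice. Total counts were 7805938 to 18073627 in the TH, 8008348 to 12887313 in the temperature and 7612059 to 11533900 in the diet experiment. Libraries of 1 group always differed beyond sampling noise, with a chi-square per degree of freedom of at least 6.81.

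Alternatives were DESeq2 1.42.0, RLE size factors, no filter, a mean count above 50, other sets of mice in the fit, leaving out each mouse, and the longest transcript for length. Leaving out mice with muscle markers above 1000 CPM was added after seeing the data. Scripts were tested on simulated data. Members and gene lists were chosen with earlier results of these data known. All 10 members are named, and for each gene list up to 3 genes with the smallest adjusted p at 24 h after TH or in CTRL mice in the cold, except 1 gene that is not reported here.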

Additional observations from a re-analysis of the deposited data

Results flagged for a closer look

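The 24 h response to TH differed between BATKO and WT mice for 2 members when the difference itself was tested with edgeR: by -1.39 on the log2 scale for Klf13 and by 1.18 for Klf11. In both cases the BATKO mice under PTU already differed from the WT mice under PTU.

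In 3 of 120 combinations of member and group with 4 to 10 mice, 1 mouse stood far from the others by Dixon's ratio of the gap to the range. Chance flags about 1 in 20 groups, or 6 here. Klf5 in CTRL mice at 30 °C had a ratio of 0.846, where mouse 21 had 0.998 CPM and the others 0.292 to 0.400 CPM. Klf11 in CTRL mice on Chow had 0.841, with mouse 1 at 25.5 CPM and the others at 20.0 to 20.9 CPM. Klf15 in BATKO mice 24 h after TH had 0.837, with mouse 8 at 34.4 CPM and the others at 20.7 to 22.9 CPM.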

How the results depend on the processing

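No paired analysis was possible because the labels' numbers name single mice. In the TH experiment WT mice carry a B before the number, and numbers that recur after it belong to mice of different genotype. No number recurs between groups within the temperature or the diet experiment. No member changed direction past the threshold under any alternative run, and RLE size factors changed none of 162 calls. The number of members that passed at 24 h against 3 h in WT mice was 1 instead of 2 with all 30 mice in the fit. In BATKO mice in the cold it was 0 instead of 3 without the mice rich in muscle markers, and 1 to 4 when each mouse was left out in turn. Leaving out each mouse gave 0 to 1 members instead of 0 for BATKO against CTRL at 4 °C, for the difference of the cold response and for HFD in BATKO mice. For HFD in BATKO mice it was also 1 with DESeq2, without a filter and with only the groups compared, and between genotypes on HFD it was 1, Klf4, without a filter, each time instead of 0. The cause was not tested.

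Counts over all genes moved more. They were 9 for HFD in BATKO mice, against 235 in DESeq2, 336 without a filter, 68 with only the groups compared and 4 without the muscle-rich mice. For BATKO against CTRL they were 323 at 4 °C, against 639 in DESeq2, 59 with only those groups and 99 without the muscle-rich mice, and 1 at 30 °C, against 8 in DESeq2 and 0 without those mice. The difference of the cold response gave 135, against 645 and 8, and cold in BATKO mice 5330, against 2196 without those mice. HFD in CTRL mice gave 509, against 872 in DESeq2, 1280 without a filter and 314 with only the groups compared. Genotype gave 0 on Chow, against 31, 290 and 125, and 0 on HFD, against 9 in DESeq2 and 59 without a filter. The difference of the HFD response gave 0, against 216 without a filter. With the longest transcript for length, 53 of 150 levels moved by over 1 SD. Depth limits Klf5, with at most 13 counts per mouse.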
